A study of Mus musculus with 6 samples.

Results

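G protein-coupled receptors (GPCRs) of the purinergic, adhesion, lipid, histamine, melanocortin and orphan classes were described across 6 libraries of sorted mouse embryonic blood cells. A gene belonged to the set if its symbol began with Gpr and a digit, Adgr, Adora, P2ry, Ptger, Ptgdr, Ptgir, Ptafr, S1pr, Lpar, Cysltr, Ltb4r, Hrh, or Mc with a digit and r, with Adgre1, Adgrg1 and Adgrl4 left out. The rule used names only and found 132 of the 17909 genes in the deposited table. Of these, 28 reached an FPKM of at least 5 in at least 1 library and are named here with all their values, as did 6317 genes of the whole table. FPKM is the number of fragments scaled to transcript length and to the mapped fragments of the library, so levels of different genes can be compared within a library. Between libraries it is relative, and the FPKM of all genes summed to 169288.6 in EMPs and 84035.8 in skin.

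RNA sequencing was done on cells sorted from embryos of a C57BL/6xFVB background with a Csf1r-iCre fate-mapping model, in which Cre recombinase expressed under control of Csf1r, the receptor gene for macrophage colony-stimulating factor, marks cells and their descendants. All 6 libraries used here come from this model. Erythro-myeloid progenitors (EMPs) are embryonic progenitors of red cells and myeloid cells, and the study followed mast cell progenitors (MCPs) that arise from them. The groups, with 1 library each, were, by embryonic day (E): at E11.5, EMPs, MCPs and macrophages (MAC), all from fetal liver, and MCPs from the limb; at E14.5, MCPs from the limb; and at E16.5, cells from the skin, which the labels call both MCPs and mast cells. Descriptions of the liver MCP and EMP samples also carry the tags LiB7_pos and LiB7_neg, whose meaning is not stated, and nothing is said of pooled embryos.

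GPCRs are membrane proteins that pass an outside signal to heterotrimeric G proteins and from there to cyclic AMP, calcium or small GTPases. In mast cells and other leukocytes, receptors for adenosine, nucleotides, lysophospholipids, prostaglandins, leukotrienes and histamine are known for setting migration and mediator release. Adhesion GPCRs carry long extracellular parts that bind matrix or cell surface proteins, and orphan receptors are those whose ligand is unknown or disputed.

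The labels were checked against marker genes. The summed FPKM of 14 mast cell markers was 197.0 in EMPs, 455.34 in liver MCPs, 204.21 in MAC, 896.34 in limb MCPs at E11.5, 4001.36 at E14.5 and 16441.7 in skin. In that order 6, 8, 5, 8, 12 and 13 of the 14 were at or above 1. Single genes carried much of some sums, with Cpa3 at 13493.94 in skin and Fcer1g at 137.87 in MAC. The MAC library had 92.41 FPKM over 13 macrophage markers, the highest of the 6 libraries, with 8 of the 13 at or above 1. Csf1r was 34.11, Cd68 20.78 and Adgre1 18.36, and the complement genes C1qa, C1qb and C1qc were 0.17, 6.82 and 2.89. The library also had 10025.81 FPKM over 9 eosinophil markers and 8167.75 over 13 neutrophil markers. It is therefore called the MAC-labelled library below. EMPs had 10417.92 over the neutrophil markers, and 10 of 10 connective tissue markers were at or above an FPKM of 1 in limb MCPs at E14.5. Estimated depth was 8550000 to 12250000 fragments per library, so that an FPKM of 5 on a transcript of 2 kb rests on 85.5 to 122.5 fragments. The skin library listed 36.1% of all genes at 0, against 16.6% to 27.5% in the others. With 1 library per group no test across samples is possible, and every difference is between these libraries only.

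Few of the receptors were well expressed, and their make-up differed between the mast cell lineage libraries and the other liver cells. Gpr84, Adgrg3 and Gpr160 were higher in EMPs and MAC-labelled cells than in any mast cell lineage library, and the reverse held for Gpr183 and Gpr171. Gpr65, a receptor that senses extracellular protons, was the most abundant member in limb cells at E14.5 and in skin. Of the 132 genes, 33 had their highest FPKM between 1 and 5 and 71 stayed below 1 in all 6 libraries. The numbers at or above 5 were 9 in EMPs, 9 in liver MCPs, 14 in MAC-labelled cells, 15 in limb MCPs at E11.5, 14 at E14.5 and 8 in skin. In that order these were 6.8%, 6.8%, 10.6%, 11.4%, 10.6% and 6.1% of the members. The shares of all genes were 26.8%, 25.6%, 24.2%, 24.1%, 24.9% and 12.5%, so all genes were also fewest in skin. Just under the minimum lay Gpr141 at 4.08, P2ry2 at 4.12 and Lpar6 at 4.37, and just above it Ptger2 at 5.04, Gpr132 at 5.39 and P2ry6 at 5.48. In bulk RNA, fewer cells that express a receptor and less RNA per cell cannot be told apart.

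**Figure D1:**
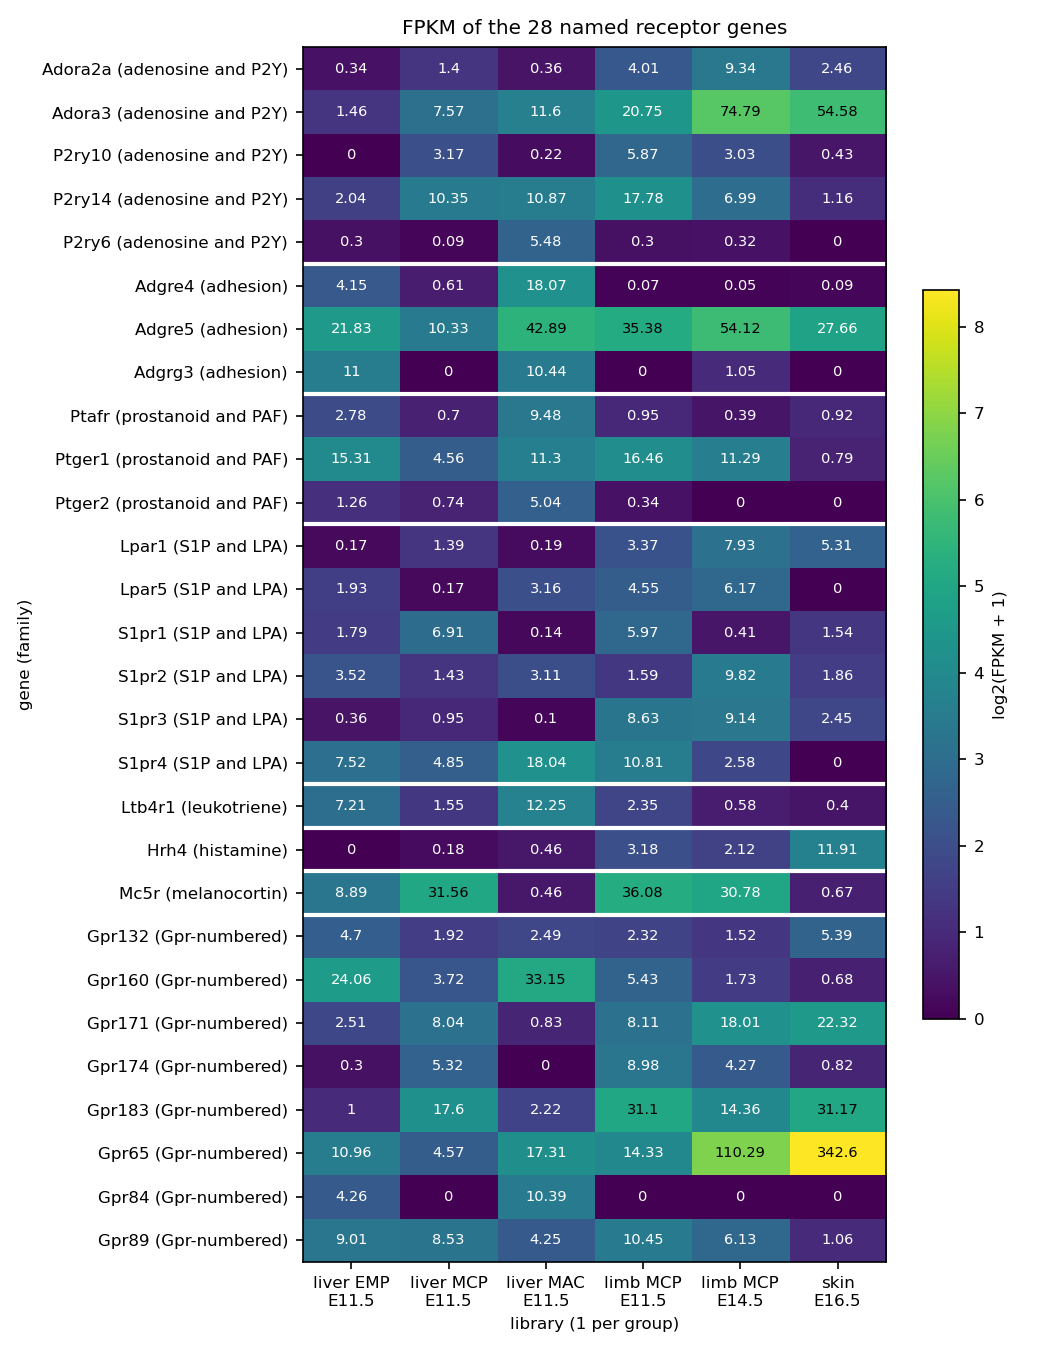
FPKM of the 28 named receptor genes (rows, grouped by family) in the 6 libraries (columns, 1 library per group); the printed number is FPKM and the colour is log2(FPKM + 1). Gpr65 in skin, at 342.6, is the highest value, and Gpr84, Adgrg3 and Adgre4 are near 0 in most mast cell lineage libraries.

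The promoter sequences of P2ry10, Gpr174, P2ry14, Gpr65 and Adora3 are shown because these genes carry the patterns described below: P2ry10, Gpr174 and P2ry14 were highest in limb MCPs at E11.5, and Gpr65 and Adora3 were the leading members of the later libraries. The choice was made after their values were seen. Each run is the 250 bases before a transcript start given by RefSeq on GRCm38.p6. It is read 5′ to 3′ on the strand of the gene and holds no base of an annotated exon. The runs of Gpr174, P2ry14 and Adora3 lie inside the annotated span of their own gene. Capitals mark matches to a GATA motif (AGATAA or TGATAA) or to a PU.1 motif (GAGGAA), searched on both strands, so that TTATCT and TTCCTC are the reverse strand forms. GATA factors and PU.1 are transcription factors known for roles in blood cell lineages. In these 5 runs no match overlaps another.
P2ry10, chrX:107088242-107088491, plus strand: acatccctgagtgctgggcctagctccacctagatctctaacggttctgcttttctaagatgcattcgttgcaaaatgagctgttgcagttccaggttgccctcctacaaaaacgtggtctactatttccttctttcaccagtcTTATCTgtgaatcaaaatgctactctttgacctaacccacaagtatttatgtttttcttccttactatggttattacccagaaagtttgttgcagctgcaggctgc
Gpr174, chrX:107284096-107284345, plus strand: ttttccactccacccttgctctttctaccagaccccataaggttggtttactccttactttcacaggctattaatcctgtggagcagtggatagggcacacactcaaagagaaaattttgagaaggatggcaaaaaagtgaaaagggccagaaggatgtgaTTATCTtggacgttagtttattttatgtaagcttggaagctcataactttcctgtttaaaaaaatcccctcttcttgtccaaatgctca
P2ry14, chr3:59131329-59131578, minus strand: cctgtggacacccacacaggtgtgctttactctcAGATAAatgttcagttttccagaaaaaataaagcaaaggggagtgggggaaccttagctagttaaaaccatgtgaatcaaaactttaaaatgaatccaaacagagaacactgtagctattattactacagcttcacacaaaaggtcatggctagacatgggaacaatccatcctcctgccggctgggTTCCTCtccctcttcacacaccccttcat
Gpr65, chr12:98268385-98268634, plus strand: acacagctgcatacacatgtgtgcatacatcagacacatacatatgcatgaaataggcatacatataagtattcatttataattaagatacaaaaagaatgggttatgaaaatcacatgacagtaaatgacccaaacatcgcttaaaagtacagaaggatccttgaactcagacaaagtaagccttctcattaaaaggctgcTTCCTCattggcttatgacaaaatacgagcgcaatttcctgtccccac
Adora3, chr3:105904171-105904420, plus strand: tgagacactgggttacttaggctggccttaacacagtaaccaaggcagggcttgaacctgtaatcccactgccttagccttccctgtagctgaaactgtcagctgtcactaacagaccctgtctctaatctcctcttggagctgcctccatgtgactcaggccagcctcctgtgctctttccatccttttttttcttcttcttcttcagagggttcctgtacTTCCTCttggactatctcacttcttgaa

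In the P2ry10 run the GATA match began 106 bases before the start, and in Gpr174 it began 89 bases before. The P2ry14 run held a GATA match 216 bases and a PU.1 match 29 bases before the start. P2ry10 and P2ry14 have more than 1 promoter, of which 1 each is shown. The P2ry10 promoter not shown held 0 GATA matches and 1 PU.1 match. Every P2ry14 promoter held a PU.1 match, but only some held a GATA match. The PU.1 match lay 48 bases before the start in Gpr65 and 28 bases before it in Adora3. Over the 20 named members with a promoter in the table, 25.0% held the GATA motif and 45.0% the PU.1 motif in at least 1 promoter of the gene, counting all 250 bases before each start. Over all 98 members with a promoter the shares were 16.3% and 32.7%, and over 27025 genes they were 18.8% and 25.9%. The named members with a GATA match that are not shown were Ptger2, highest in MAC-labelled cells, and Lpar5, highest in limb MCPs at E14.5. Those with a PU.1 match were Adgrg3, S1pr3, Ltb4r1, Lpar1 and Ptafr. Gpr89, highest in limb MCPs at E11.5, and Gpr183, highest in skin, held neither motif. A match of letters is a description of the sequence, and binding was not measured.

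By the GENCODE annotation of GRCm38, 14 of the 28 named genes (50.0%) and 64 of 131 members (48.9%) had a single coding exon, against 11.4% of 17270 genes. Several named members are neighbours. Gpr171 (chr3:59096448-59101821) and P2ry14 (chr3:59113855-59153618) lie 12033 bases apart inside the span of Med12l. P2ry10 (chrX:107088492-107104974) and Gpr174 (chrX:107255878-107296769) are 150903 bases apart, and Gpr18 lies 36769 bases from Gpr183 (chr14:121952551-121965195), both inside the span of Ubac2. Gpr65 is at chr12:98268635-98276644 and Adora3 at chr3:105870858-105908926.

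Among the receptors for adenosine, Adora3, whose product is known to enhance mast cell degranulation in rodents, had an FPKM of 1.46 in EMPs, 7.57 in liver MCPs, 11.60 in MAC-labelled cells, 20.75 in limb MCPs at E11.5, 74.79 at E14.5 and 54.58 in skin. Both later libraries stood above the 4 libraries of E11.5. Annotated exons of Adora3 overlap those of Tmigd3 on the same strand, and Tmigd3 was listed between 0.61 and 4.40. Adora2a, a receptor that raises cyclic AMP and is known to restrain leukocytes, was 0.34, 1.40, 0.36, 4.01, 9.34 and 2.46 in the same order. It was highest in limb MCPs at E14.5 under each scaling, while Adora3 was highest in skin rather than limb once libraries were rescaled to equal sums or by medians of ratios.

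P2Y receptors respond to nucleotides, and 3 of them were above the minimum. P2ry14, the receptor for UDP-glucose, was 2.04 in EMPs, 10.35 in liver MCPs, 10.87 in MAC-labelled cells, 17.78 in limb MCPs at E11.5, 6.99 at E14.5 and 1.16 in skin. It was thus low at both ends of the series, in EMPs and in skin. P2ry10, reported as a receptor for lysophosphatidylserine, was listed at 0 in EMPs, 3.17 in liver MCPs, 0.22 in MAC-labelled cells, 5.87 in limb MCPs at E11.5, 3.03 at E14.5 and 0.43 in skin. Its neighbour Gpr174, also a lysophosphatidylserine receptor, had the same order of the 4 mast cell lineage libraries, with 5.32 in liver MCPs, 8.98 in limb MCPs at E11.5, 4.27 at E14.5 and 0.82 in skin, beside 0.30 in EMPs and 0 in the MAC-labelled library. P2ry6, a UDP receptor of myeloid cells, was 5.48 in MAC-labelled cells and at most 0.32 in the other libraries.

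Of the 20 adhesion receptors 3 reached the minimum. Adgre5 (CD97), which binds the complement regulator CD55, was present in every library, with 21.83 in EMPs, 10.33 in liver MCPs, 42.89 in MAC-labelled cells, 35.38 in limb MCPs at E11.5, 54.12 at E14.5 and 27.66 in skin. The gene of its partner, Cd55, was 0.69, 14.77, 2.60, 19.83, 15.98 and 67.85 in the same order, so the EMP and MAC-labelled libraries held the receptor with little of the partner. Exons of Adgre5 overlap those of Ddx39 on the opposite strand, which was 16.93, 10.01, 1.72, 1.42, 13.05 and 0 in that order. Since no source used here states whether the libraries kept strand, the reads of such a pair cannot be told apart. Adgre4, a receptor of the F4/80 family of macrophages and other myeloid cells, was 4.15 in EMPs and 18.07 in MAC-labelled cells, 0.61 in liver MCPs and at most 0.09 in limb and skin. Adgrg3, a granulocyte receptor, was 11 in EMPs and 10.44 in MAC-labelled cells, 1.05 in limb MCPs at E14.5 and listed at 0 in the other 3 libraries.

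Receptors for sphingosine 1-phosphate (S1P) fell into different patterns. S1pr1, the receptor known for lymphocyte exit into blood, was 1.79 in EMPs, 6.91 in liver MCPs, 0.14 in MAC-labelled cells, 5.97 in limb MCPs at E11.5, 0.41 at E14.5 and 1.54 in skin. S1pr4, a receptor of blood cells, was highest in MAC-labelled cells at 18.04, with 7.52 in EMPs, 4.85 in liver MCPs, 10.81 in limb MCPs at E11.5, 2.58 at E14.5 and 0 in skin. S1pr3 was 8.63 and 9.14 in limb MCPs at E11.5 and E14.5, 2.45 in skin and at most 0.95 in the liver libraries. S1pr2, a receptor known in mast cell degranulation, was 9.82 in limb MCPs at E14.5 and between 1.43 and 3.52 elsewhere.

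Of the receptors for lysophosphatidic acid (LPA), Lpar1 and Lpar5 reached the minimum. Lpar1, widely expressed in mesenchymal cells, was 0.17 in EMPs, 1.39 in liver MCPs, 0.19 in MAC-labelled cells, 3.37 in limb MCPs at E11.5, 7.93 at E14.5 and 5.31 in skin. The summed FPKM of the connective tissue markers in those libraries was 1.22, 4.21, 0.77, 12.75, 87.61 and 14.9, also highest in limb MCPs at E14.5, and its part in the Lpar1 and S1pr3 values was not tested. Lpar5 was 1.93, 0.17, 3.16, 4.55, 6.17 and 0 in the same order. It was the only one of the 14 members at or above 5 in limb MCPs at E14.5 to be listed at 0 in skin, where 4.69% of all such genes were at 0.

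For prostaglandins and platelet-activating factor, Ptger1, a receptor for prostaglandin E2 that acts through calcium, was 15.31 in EMPs, 4.56 in liver MCPs, 11.30 in MAC-labelled cells, 16.46 in limb MCPs at E11.5, 11.29 at E14.5 and 0.79 in skin. Ptger2, a prostaglandin E2 receptor that raises cyclic AMP, was 5.04 in MAC-labelled cells, 1.26 in EMPs and at most 0.74 elsewhere. Ptafr, the receptor for platelet-activating factor, was 9.48 in MAC-labelled cells, 2.78 in EMPs and at most 0.95 elsewhere. Ltb4r1, the high-affinity receptor for leukotriene B4 of granulocytes, was 7.21 in EMPs, 1.55 in liver MCPs, 12.25 in MAC-labelled cells, 2.35 in limb MCPs at E11.5, 0.58 at E14.5 and 0.40 in skin. These last 3 genes were thus highest in the library with the most eosinophil marker RNA, whose part in the values was not tested.

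Histamine and melanocortin receptors gave 1 named member each. Hrh4, the histamine receptor of leukocytes and mast cells, was listed at 0 in EMPs, 0.18 in liver MCPs, 0.46 in MAC-labelled cells, 3.18 in limb MCPs at E11.5, 2.12 at E14.5 and 11.91 in skin, and the other 3 histamine receptor genes stayed below 1 in every library. Mc5r, a melanocortin receptor best known from exocrine glands, was 8.89 in EMPs, 31.56 in liver MCPs, 0.46 in MAC-labelled cells, 36.08 in limb MCPs at E11.5, 30.78 at E14.5 and 0.67 in skin. It was the highest member of the set in both MCP libraries of E11.5. Pomc, which encodes the precursor of melanocortin peptides, was at most 0.93 in any library. Of the genes that handle histamine, the forming enzyme Hdc was 60.5 in EMPs, 63.7 in liver MCPs, 43.57 in MAC-labelled cells, 113.94 and 564.48 in limb MCPs and 579.07 in skin, and the vesicle transporter Slc18a2 was 0, 1.59, 0, 20.36, 27.99 and 42.65. Both were lowest in the EMP, liver MCP and MAC-labelled libraries, where Hrh4 was also below 1.

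Among the numbered receptors, Gpr65 (TDAG8) was 10.96 in EMPs, 4.57 in liver MCPs, 17.31 in MAC-labelled cells, 14.33 in limb MCPs at E11.5, 110.29 at E14.5 and 342.6 in skin. By level it ranked 196 among all genes in limb MCPs at E14.5 and 27 in skin, where it made up 63.0% of the summed FPKM of the set. Gpr183 (EBI2), an oxysterol receptor that guides immune cell position, was 1.0 in EMPs, 17.60 in liver MCPs, 2.22 in MAC-labelled cells, 31.10 in limb MCPs at E11.5, 14.36 at E14.5 and 31.17 in skin. All 4 mast cell lineage libraries were above both other liver libraries for this gene. Ch25h, an enzyme that makes the precursor of its ligand, was at most 0.46 in any library. The same held for Gpr171, a receptor reported to bind a neuropeptide, with 2.51 in EMPs, 0.83 in MAC-labelled cells, 8.04 in liver MCPs, 8.11 and 18.01 in limb MCPs at E11.5 and E14.5 and 22.32 in skin.

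The reverse order held for Gpr160, an orphan receptor, at 24.06 in EMPs and 33.15 in MAC-labelled cells against 3.72 in liver MCPs, 5.43 and 1.73 in limb MCPs at E11.5 and E14.5 and 0.68 in skin. Gpr84, a receptor for medium-chain fatty acids on activated myeloid cells, was 4.26 in EMPs and 10.39 in MAC-labelled cells and was listed at 0 in all 4 mast cell lineage libraries. At the estimated depths a value of 0 allows up to 3 fragments, an FPKM of 0.1224 to 0.1754 on a 2 kb transcript (counting error only). Gpr132, a receptor linked to protons and oxidised lipids, ranged from 1.52 to 4.70 and reached 5.39 in skin. Gpr89, which encodes a Golgi anion channel rather than a classical receptor, was between 4.25 and 10.45 in 5 libraries and 1.06 in skin.

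**Figure D2:**
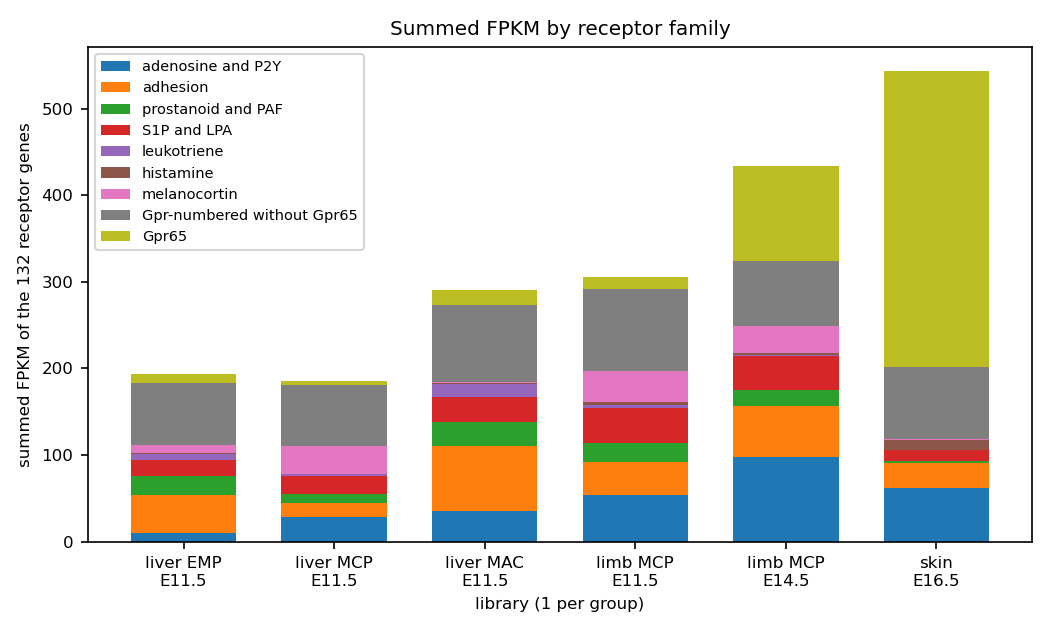
Summed FPKM of the 132 receptor genes in each library (1 per group), stacked by family with Gpr65 drawn apart. The sum is 194.2 in EMPs and 544.03 in skin, and Gpr65 makes up 342.6 of the latter.

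The summed level of the set was 194.2 in EMPs, 185.62 in liver MCPs, 290.25 in MAC-labelled cells, 306.16 in limb MCPs at E11.5, 433.83 at E14.5 and 544.03 in skin. Adenosine and P2Y receptors went from a sum of 10.53 in EMPs to 98.04 at E14.5 in the limb. Adhesion receptors had their largest sum, 74.78, in MAC-labelled cells. The leading member was Gpr160 in EMPs, Mc5r in liver MCPs, Adgre5 in MAC-labelled cells, Mc5r in limb MCPs at E11.5 and Gpr65 in both later libraries.

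By library of highest level, 8 of the 28 genes peaked in MAC-labelled cells (Gpr160, Gpr84, P2ry6, Ltb4r1, Ptger2, S1pr4, Adgre4 and Ptafr), against 14.55% of the 6317 genes at or above 5 anywhere. In limb MCPs 6 peaked at E11.5 (Ptger1, Gpr89, P2ry10, Mc5r, P2ry14 and Gpr174) and 7 at E14.5, where the background shares were 13.09% and 14.01%. A further 5 peaked in skin (Gpr132, Hrh4, Gpr171, Gpr183 and Gpr65), against 6.791%. Adgrg3 alone peaked in EMPs and S1pr1 alone in liver MCPs, against 28.35% and 23.21%. After rescaling, 8 members (equal sums) or 11 (medians of ratios) peaked in skin, where 20.0% and 26.0% of genes then did. These included Adora3 and Lpar1 under both scalings and Adgre5 under the second. They also included Gpr18 under both, and P2ry13 and Gpr19 under the second. Those genes, at 2.96, 2.87 and 2.85 in skin as deposited, are not among the 28 and pass the minimum only after rescaling.

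The first comparison asked how receptors differ between liver MCPs and the EMPs of the same liver and age. Mc5r, Gpr183, Gpr174, P2ry14, Adora3, S1pr1 and Gpr171 were higher in MCPs, and Gpr160, Adgrg3, Ltb4r1, Ptger1, Gpr65 and Adgre5 were lower. Here and below, a gene was called higher or lower if log2(FPKM + 1) differed by at least 1 and at least 1 of both libraries had an FPKM of 5 or more. Gpr183 was 17.6-fold and Gpr174 17.7-fold higher, and Gpr160 was 6.47-fold lower (log2 differences 3.22, 2.28 and -2.41). Thus 7 of the 15 members that passed the minimum were higher and 6 lower, where 8.48% of all 5463 genes passing were higher and 14.3% lower. Adgre5 (-1.01) and Gpr65 (-1.10) lay close to the threshold, and Adgre5 missed it under both rescalings (-0.87 and -0.96) and Gpr65 under equal sums (-0.96). Gpr174, at 5.32, fell below the minimum of 5 and lost its call under both rescalings. The neutrophil markers were 10417.92 in EMPs and 1055.06 in liver MCPs, and their part in the lower receptors, Adgrg3 and Ltb4r1 among them, was not tested.

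Genes around these receptors were taken from 8 lists of ligand enzymes, transporters and signalling partners. Of 17 nucleotide and adenosine handling genes measured, 6 passed the minimum, and 4 of these rose in liver MCPs against EMPs (Adk, P2rx1, P2rx4 and Dpp4) and none fell, with a median log2 difference of 1.08 against -0.15 over all genes passing. Adk, which removes adenosine by phosphorylation, was 4.55 in EMPs and 13.87 in liver MCPs. Of 7 S1P and LPA genes passing, the exporters Spns2 (5.5 and 13.40) and Mfsd2b (4.45 and 18.07) rose and Sgpp1 fell, with a median of -0.38. Over all genes passing in this comparison, 8.48% were higher and 14.3% lower. Mfsd2b is known as the exporter of red cells and platelets, and the summed erythroid markers were 87.07 in EMPs and 372.65 in liver MCPs. The part of those cells in the Mfsd2b value was not tested.

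Between the MAC-labelled library and EMPs, 8 of 16 members passing were higher and 1 was lower, against 5.42% and 10.6% of all genes. The higher genes were Adora3 (7.95-fold), P2ry6 (18.3-fold), P2ry14 (5.33-fold), Adgre4 (4.35-fold), Ptger2 (4.0-fold), Ptafr (3.41-fold), Gpr84 (2.44-fold) and S1pr4 (2.40-fold). Mc5r, at 8.89 in EMPs and 0.46 in MAC-labelled cells, was 19.3-fold lower. After rescaling to equal sums P2ry6 and Ptger2, and by medians of ratios Ptger2, fell below the minimum and lost their calls. This comparison shares the EMP library with the one before. The eosinophil markers summed to 269.8 in EMPs and 10025.81 in MAC-labelled cells, while those of neutrophils were 10417.92 and 8167.75, and their part in the receptor values was not tested.

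The largest number of differences within the set was found between liver MCPs and MAC-labelled cells, which again share libraries with the comparisons above. Mc5r was 68.6-fold, S1pr1 49.4-fold, Gpr171 9.69-fold and Gpr183 7.93-fold higher in MCPs, and Gpr174 was 5.32 in MCPs and listed at 0 in the MAC-labelled library. Lower in MCPs were 12 members: Adgre4 (29.6-fold), Ptafr (13.5-fold), Gpr160 (8.91-fold), Ltb4r1 (7.90-fold), P2ry6 (60.9-fold), Ptger2 (6.81-fold), Adgre5 (4.15-fold), Gpr65 (3.79-fold), S1pr4 (3.72-fold), Ptger1 (2.48-fold), and Adgrg3 and Gpr84, which MCPs listed at 0. Of 20 members passing, 5 were thus higher and 12 lower, beside 17.3% and 14.1% of all 5317 genes. Gpr174 lost its call under both rescalings, Ptger2 under both and P2ry6 under equal sums, each by falling below the minimum. Eosinophil markers were 90.82 in MCPs and 10025.81 in MAC-labelled cells and neutrophil markers 1055.06 and 8167.75, and their part in the lower calls was not tested. Adora3 and P2ry14, higher than EMPs in both libraries, differed by less than the threshold between them.

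**Figure D3:**
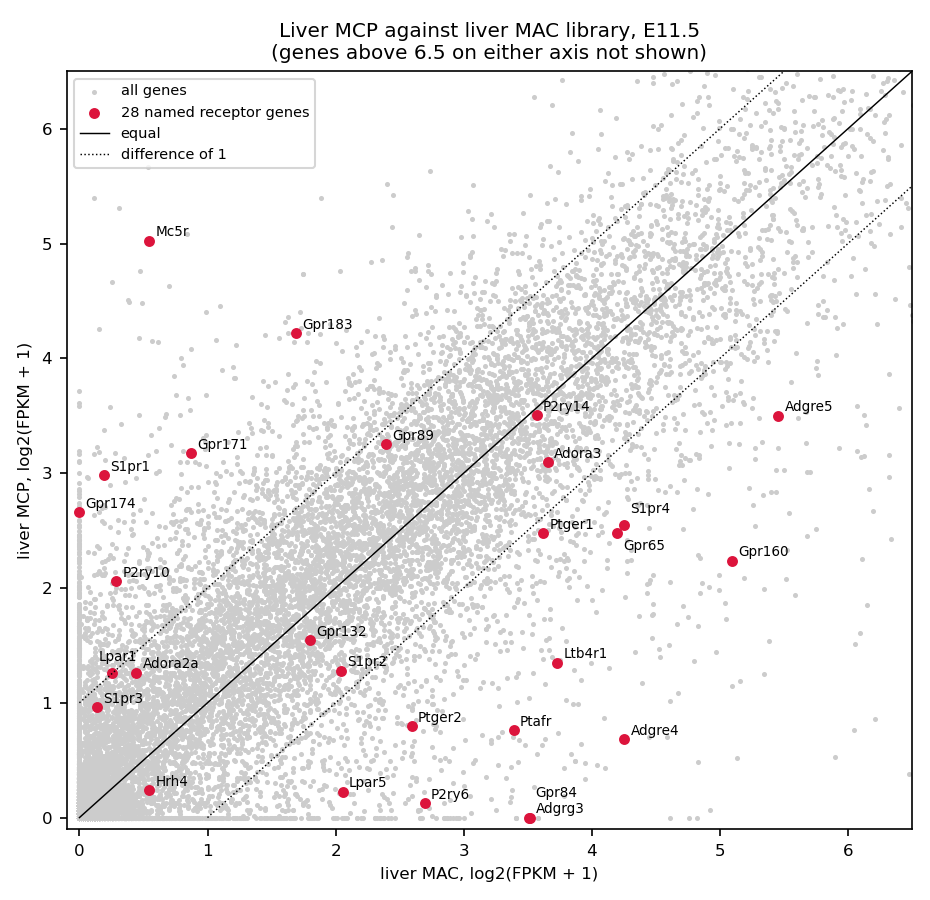
Log2(FPKM + 1) of all genes (grey) and the 28 named receptor genes (red) in the liver MCP library (vertical axis) and the MAC-labelled liver library (horizontal axis); the dotted lines mark a difference of 1. Mc5r, Gpr183, Gpr171, S1pr1 and Gpr174 lie above the band with an FPKM of at least 5, and 12 genes that meet the same minimum lie below it.

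Limb and liver MCPs of the same age, E11.5, differed in 6 members, all higher in the limb, among 15 passing. S1pr3 was 9.08-fold higher (8.63 against 0.95), Ptger1 3.61-fold, Adgre5 3.43-fold, Gpr65 3.14-fold, Adora3 2.74-fold and S1pr4 2.23-fold. No member was lower, where 7.65% of all genes were higher and 13.6% lower. Hrh4 (3.18 in limb, 0.18 in liver) did not reach the FPKM minimum in either library. Over all genes 64.0% of the calls were lower, which became 50.1% after rescaling to equal sums and 49.0% by medians of ratios. The 6 members higher stayed 6 under both, with no member lower. Spns2 (13.40 in liver, 2.38 in limb) and Mfsd2b (18.07 and 2.32) were lower in the limb, and the erythroid markers were 372.65 in liver and 73.94 in limb MCPs. The neutrophil markers were 1055.06 and 488.35, and the part of either set in the differences was not tested.

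Between E11.5 and E14.5 limb MCPs, Gpr65 rose 7.70-fold, S1pr2 6.18-fold, Adora3 3.60-fold, Lpar1 2.35-fold, Adora2a 2.33-fold and Gpr171 2.22-fold. S1pr1 fell 14.6-fold, S1pr4 4.19-fold, Gpr160 3.14-fold, P2ry14 2.54-fold and Gpr183 2.17-fold. These were 6 higher and 5 lower of 19 members passing, against 9.14% and 7.01% of all genes. Lpar1, Adora2a and Gpr171, with log2 differences of 1.03, 1.05 and 1.06, missed the threshold under both rescalings, and Gpr160 fell below the minimum by medians of ratios. Summed mast cell markers were 896.34 and 4001.36 at these ages and connective tissue markers 12.75 and 87.61. Neutrophil markers were 488.35 and 2.3 and eosinophil markers 97.43 and 2.6, and the part of these sets in the receptor differences was not tested.

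In the same interval Gnai1, which encodes an inhibitory G protein subunit, went from 7.77 to 78.23, and it was 412.79 in skin. In liver MCPs it was 0.57. Grk5, a kinase that switches off active receptors, was 1.56 at E11.5 and 6.63 at E14.5. Of 14 genes for coupling and desensitisation that passed, these 2 rose and Gna11 and Pde4b fell, with a median of -0.10 against 0.08 over all genes. Alox5, which starts leukotriene synthesis, Ptgs2 and Pla2g7 rose among 12 lipid mediator genes passing, and Alox5ap and Pafah1b3 fell. The median of the 12 was 0.29. Over all genes passing, 9.14% were higher and 7.01% lower.

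Skin cells at E16.5 and limb MCPs at E14.5 differ in tissue and age at once, which cannot be told apart. Hrh4 (5.62-fold), Gpr132 (3.55-fold), Gpr65 (3.11-fold) and Gpr183 (2.17-fold) were higher in skin. Mc5r (45.9-fold), Ptger1 (14.3-fold), P2ry14 (6.03-fold), Gpr89 (5.78-fold), S1pr2 (5.28-fold), Adora2a (3.80-fold) and S1pr3 (3.73-fold) were lower, as was Lpar5, listed at 0. The counts are 4 higher and 8 lower of 16 members passing, but 61.5% of all 4679 genes passing were lower and 5.09% higher, so 8 of 16 lower is not above the background.

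The median gene was -1.36 on the log2 scale in this comparison, and -0.55 or -0.15 after rescaling to equal sums or by medians of ratios. The share of lower calls among all calls was 92.4%, 71.9% and 58.0% in turn. Relative to the median gene, 8 of the 16 members lay above it and 8 below. The distances were 3.41 for Hrh4, 2.99 for Gpr65, 2.71 for Gpr132, 2.43 for Gpr183 and 1.66 for Gpr171. On the other side Mc5r stood at -2.89, Lpar5 at -1.48 and Ptger1 at -1.42, while S1pr3 (-0.19) and Adora2a (-0.22) were close to the median gene and were not lower under either rescaling. Gpr171 was called higher under both. Gata2, a transcription factor of mast cells, was 141.93 in limb MCPs at E14.5 and listed at 0 in skin, beside mast cell markers summing to 16441.7 there.

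Partner genes in skin included Cd55, up from 15.98 to 67.85, and the S1P lyase gene Sgpl1, up from 12.23 to 42.08. Pla2g7, whose product degrades platelet-activating factor, was 9.08 in limb MCPs at E14.5 and 70.73 in skin, and Hpgds, the prostaglandin D2 synthase of mast cells, was 0.92 and 11.05. Of 13 lipid mediator genes passing, these 2 rose and 8 fell, with a median of -1.34 that was close to the -1.36 of all genes. Of 15 coupling and desensitisation genes passing, Gnai1 and Grk4 rose and 6 fell (Arrb1, Arrb2, Adrbk1, Gnas, Gnai2 and Gna12), with a median of -0.82. Over all genes passing, 5.09% were higher and 61.5% lower, so 6 of 15 lower is not above the background.

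**Figure D4:**
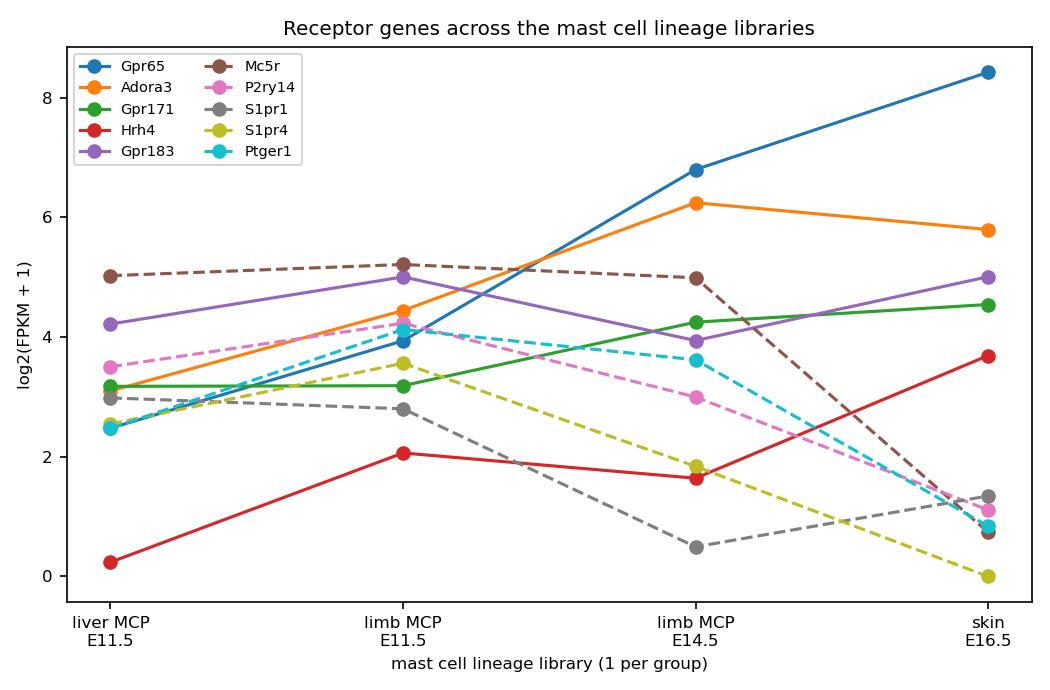
Log2(FPKM + 1) of 10 receptor genes in the 4 mast cell lineage libraries (1 per group); solid lines are genes whose skin level is at least that of limb MCPs at E11.5, and dashed lines are genes with a lower one. Gpr65 rises at each step from 4.57 to 342.6 FPKM, while Mc5r stays between 30.78 and 36.08 and is 0.67 in skin.

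Along the lineage libraries, from liver MCPs through limb MCPs of both ages to skin, Gpr65 was the only member that rose at every step with a difference of at least 2 on the log2 scale between the ends, as did 1.84% of all 4887 genes tested. None fell at every step, against 9.27%. After rescaling to equal sums Gpr171, Adora3 and Lpar1 joined Gpr65, against 3.59% of genes, and by medians of ratios also Adgre5, against 4.49%. From EMPs the order differs: Gpr65 was 10.96 in EMPs and 4.57 in liver MCPs. Over liver MCPs and both limb libraries, without skin, 7 members rose in order by the same rule (Adgre5, S1pr3, Adora2a, S1pr2, Adora3, Gpr65 and Lpar5, against 3.05%) and S1pr1 fell (against 1.97%). The order without skin was not recomputed after rescaling. Under both rescalings S1pr3 was highest in limb MCPs at E11.5, so its last step no longer rose.

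Some members below the minimum are neighbours or relatives of those named. Gpr18, the neighbour of Gpr183, was between 1.30 and 3.39 in all libraries. Gpr34 and Gpr82, neighbours on the X chromosome, were at most 1.53 and 1.41. P2ry2, a UTP and ATP receptor, was 4.12 in EMPs, 3.26 in MAC-labelled cells, 0.62 in liver MCPs, 1.30 and 0.28 in limb MCPs at E11.5 and E14.5 and 0 in skin. Cysltr1, the cysteinyl leukotriene receptor, was highest at 2.33 in MAC-labelled cells. Ptger4 and Ptger3, further prostaglandin E2 receptors, were at most 2.13 and 1.39, both in liver MCPs. Adgrg5, a neighbour of Adgrg3, was 3.01 in EMPs, 1.16 in liver MCPs, 3.06 in MAC-labelled cells and 2.90 in limb MCPs at E11.5 and was listed at 0 in both later libraries.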

How the data were processed

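Per the labels' protocols, total RNA of sorted cells was extracted with TRIzol, and the Beijing Genomics Institute made and sequenced the libraries on an Illumina HiSeq platform. The authors deposited 1 table of FPKM values with 2 decimals for 17913 gene symbols, for which the submitters' processing notes name Bowtie2, RSEM and the build mm10 (GRCm38). Tool versions were not given in the sources used here, nor was strandedness. After 4 repeated names were dropped, 17909 genes were kept. FPKM is relative within a library, so a few very abundant genes lower all others.

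Groups were taken from the labels. Differences were computed on log2(FPKM + 1), with a pseudocount of 1, in Python 3.11.15 with NumPy 2.4.6 and pandas 2.3.3, and drawn with matplotlib 3.10.9. With 1 library per group no p-value or error across samples was computed. A counting error from the estimated depth and the transcript length was used only to sort recomputed differences into same or moved. A difference of log2(FPKM + 1) understates the change of low genes. Folds divide the FPKM values themselves, with no pseudocount, and a value of 0 gives none. Named genes were all members that reached an FPKM of 5 somewhere. The members, gene lists and thresholds were chosen with earlier results of these data known. The depth of each library was inferred from the FPKM steps of 1385 genes with a single transcript, a method picked after the data were seen. At the estimate 73.1% to 78.7% of values lay within 0.2 of a whole number of fragments, against 40% by chance. The depth with the best fit was taken, for which the 40% makes no allowance. On simulated data, 6 of 6 depths were recovered, and 200 of 200 changed genes were called in each of 6 comparisons with 0 false calls. The simulated depths used whole counts and the same transcript lengths as the estimate. Their recovery therefore does not test the deposited values, whose fragment numbers need not be whole. The simulated calls show only that the calling step works as written. With 1 library per group, false calls from variation between replicate libraries could not be measured. Alternatives were the pseudocount, the minimum, a 4-fold threshold, 2 rescalings, and leaving out genes listed at 0. Protein sequences were not used here.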

Additional observations from a re-analysis of the deposited data

How the results depend on the processing

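Of 137 recomputed counts 90 stayed within 1.5 times the reported count and 47 moved. For members ordered along the lineage the 4-fold threshold is the reported setting itself, so those counts could not move under it. Of 272 differences of named genes, 165 stayed within the counting error of the reported difference, 107 moved and 0 reversed. A change of pseudocount cannot reverse a difference, so only the rescalings could have done so. No paired analysis was possible because each group has 1 library, so no replicate could be left out either.

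For liver MCPs against EMPs, 7 members were higher, which became 3 with a pseudocount of 5, 14 without a minimum, 3 at FPKM 10 and 2 at the 4-fold threshold. The 6 lower became 3 with a pseudocount of 5, 11 without a minimum and 2 at 4-fold. For MAC-labelled cells against EMPs, the 8 higher became 3 with a pseudocount of 5, 5 at FPKM 10 and 2 at 4-fold, and the 1 lower became 2 with a pseudocount of 0.1, 3 without a minimum and 0 at FPKM 10. For liver MCPs against MAC-labelled cells, the 5 higher became 11 without a minimum and 2 at FPKM 10, and the 12 lower became 7 at 4-fold. For limb against liver, the 6 higher became 1 at 4-fold, and 4 were lower without a minimum. For limb E14.5 against E11.5, the 6 higher became 3 with a pseudocount of 5, 3 at FPKM 10, 2 at 4-fold and 3 under either rescaling, and the 5 lower became 2 with a pseudocount of 5, 8 without a minimum, 3 at FPKM 10 and 1 at 4-fold. For skin against limb, the 4 higher became 2 with a pseudocount of 5, 1 at 4-fold and 8 by medians of ratios, and the 8 lower became 4 with a pseudocount of 5, 19 without a minimum, 2 at FPKM 10 and 3 at 4-fold. The 8 higher by medians of ratios include Gpr18, P2ry13 and Gpr19, which pass the minimum only after rescaling.

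Members peaking in EMPs became 0 by medians of ratios and in liver MCPs 0 at FPKM 10. Those peaking in MAC-labelled cells became 5 at FPKM 10. Those in limb MCPs at E14.5 became 2 at FPKM 10, 4 with equal sums and 3 by medians of ratios, and those in skin became 8 and 11 under these rescalings. Part of the gain in skin came from members that pass the minimum only after rescaling. Members rising along the lineage became 4, 5 and, without skin, 7. Members falling became 1 without a minimum and 1 without skin. A changed minimum or fold threshold alters which genes can be called by construction. For the rescalings the cause was not tested. By medians of ratios, 38.3% of all calls between MAC-labelled cells and EMPs were lower, against 66.2% as deposited, and 61.5% against 44.9% between liver MCPs and MAC-labelled cells. With equal sums it was 50.5% against 62.8% between liver MCPs and EMPs.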
